A study of Mus musculus with 6 samples.

Results

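The antioxidant enzymes of the cell and the NRF2 system that controls many of them were described here in mouse blastocysts that were either fresh or vitrified and warmed. The set holds 38 of the 28879 genes of the deposited expression table, chosen by gene name for their known function. Superovulated virgin C57BL/6JNarl females of 6 to 8 weeks (pregnant mare serum gonadotrophin, then 5 IU of human chorionic gonadotrophin 48 h later) gave the embryos, while the design text names B6CBF1 mice, and culture in human tubal fluid lasted 3 days. Fresh blastocysts received no vitrification, and the other group was vitrified with a Cryotech kit and warmed, a rapid cooling with cryoprotectants that turns the embryo into a glass. Each group was 1 pool of 100 blastocysts divided into 3 aliquots, with 1 RNA-Seq library per aliquot. The spread among 3 libraries is therefore the spread between aliquots, and an effect of vitrification and warming cannot be told apart from a difference between the pools. After warming, embryos meant for transfer spent 2 h in human tubal fluid, and whether the embryos lysed for RNA did so is not given in the sources used here.

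Superoxide dismutases turn superoxide into hydrogen peroxide, which catalase, peroxiredoxins and glutathione peroxidases then remove. Peroxiredoxins draw their electrons from thioredoxin and glutathione peroxidases from glutathione, and both are recharged with NADPH by thioredoxin reductases and glutathione reductase. KEAP1 holds the transcription factor NRF2 (gene Nfe2l2) for degradation until oxidants or electrophiles modify it, whereupon NRF2 binds antioxidant response elements with small MAF proteins and raises genes of quinone reduction, heme breakdown and glutathione synthesis. In the embryo these enzymes are known mainly for guarding against the oxidants of culture and of freezing.

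Depth was 9093411 to 11843562 exon fragments per library. The library total behind each FPKM was derived here from the deposited counts, exon lengths and FPKM values. The share of exon fragments in that total was 63.2% to 63.6% for fresh aliquots but 54.4% to 56.6% for vitrified–warmed ones. This difference in library composition moves with the groups throughout. Between 15558 and 20086 genes were detected per fresh library and between 17563 and 17764 per vitrified–warmed library, with fresh replicate 1 the highest of all. Levels are given as CPM (counts scaled to a common library size with TMM factors), and comparisons between genes use FPKM, which divides by exon length. The blastocyst label was borne out by its markers, since trophectoderm genes summed to 1488 to 1554 CPM in fresh and 1725 to 1737 CPM in vitrified–warmed libraries and epiblast genes to 614 to 645 and 650 to 674 CPM. Primitive endoderm genes summed to 232 to 239 and 295 to 328 CPM. Markers of oocytes, cumulus cells, oviduct and sperm summed to at most 17.1 CPM in any library, with the sperm genes Prm2 and Tnp1 at 0. Blood and immune markers summed to 3.33 to 4.68 CPM in fresh and 13.8 to 18.5 CPM in vitrified–warmed libraries. The 3 of 6 that were tested (Hba-a1, Hbb-bs and Cd68) were higher, as were 31.6% of all tested genes. The others were near 0 in both groups. Ptprc, Lyz2 and Csf1r had means of 0.12, 0.03 and 0.12 CPM fresh and 0.03, 0.06 and 0.09 CPM vitrified–warmed. The part of these cell type signals in the results was not tested. In such bulk libraries, fewer cells of a type and less RNA per cell cannot be told apart.

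The promoters of the set were read to show which of its genes carry an antioxidant response element close to their start. The core searched was TGACNNNGC on both strands of RefSeq windows (GRCm38.p6) from 250 bases before to 50 bases after each start. Windows were matched for 32 members (43 windows), and Gclc, Gsr, Hmox1, Msra, Oxr1 and Prdx6 had none. A core was found for 7 of the 32 members (21.9%), against 3781 of all 27025 genes with a window (13.99%). The 250 bases before the start are shown for the 5 members with a core there, each 5′ to 3′ on the strand of the gene with the core in capitals.
Prdx1: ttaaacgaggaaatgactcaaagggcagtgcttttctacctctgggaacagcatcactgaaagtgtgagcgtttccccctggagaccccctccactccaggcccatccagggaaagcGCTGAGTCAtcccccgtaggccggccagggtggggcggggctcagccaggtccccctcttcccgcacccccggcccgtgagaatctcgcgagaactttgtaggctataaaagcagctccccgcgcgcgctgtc
Sod1: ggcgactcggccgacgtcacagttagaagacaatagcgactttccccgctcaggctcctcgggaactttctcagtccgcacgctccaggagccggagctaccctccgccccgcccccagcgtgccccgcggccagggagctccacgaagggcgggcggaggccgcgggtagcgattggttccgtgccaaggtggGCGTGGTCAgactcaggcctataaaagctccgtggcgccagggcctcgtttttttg
Nfe2l2: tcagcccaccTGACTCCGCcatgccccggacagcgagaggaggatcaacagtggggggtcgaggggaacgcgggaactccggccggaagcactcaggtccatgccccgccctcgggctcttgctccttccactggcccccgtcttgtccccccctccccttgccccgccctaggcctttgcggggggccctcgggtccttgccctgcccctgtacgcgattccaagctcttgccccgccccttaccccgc
Gclm: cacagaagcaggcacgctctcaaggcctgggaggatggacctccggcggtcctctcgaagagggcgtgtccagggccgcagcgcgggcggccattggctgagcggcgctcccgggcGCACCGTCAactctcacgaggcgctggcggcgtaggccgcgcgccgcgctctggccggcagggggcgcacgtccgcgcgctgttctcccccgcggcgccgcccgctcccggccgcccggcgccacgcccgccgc
Txnrd1: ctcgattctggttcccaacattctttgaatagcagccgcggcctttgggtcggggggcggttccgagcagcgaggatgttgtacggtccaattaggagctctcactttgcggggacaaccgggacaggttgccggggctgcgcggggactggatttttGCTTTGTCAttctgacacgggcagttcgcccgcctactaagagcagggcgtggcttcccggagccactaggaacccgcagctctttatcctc

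These windows lie at chr4:116685349-116685598 (plus strand) for Prdx1, chr16:90220512-90220761 (plus) for Sod1, chr2:75704664-75704913 (minus) for Nfe2l2, chr3:122245307-122245556 (plus) for Gclm and chr10:82858956-82859205 (plus) for Txnrd1. The core began 133 bases before the start in Prdx1, 56 in Sod1, 240 in Nfe2l2, 134 in Gclm and 92 in Txnrd1, where it is in the second of 3 windows. Nfe2l2 carries it on the strand of the gene and the other 4 on the opposite strand. Txnrd1 was the only one of the 7 with an A after the core, a form found in 3.45% of all genes with a window. In Srxn1 and Msrb2 the core lay 28 and 39 bases after the start. Of these 7 genes, Prdx1 and Nfe2l2 were higher and Srxn1 lower in vitrified–warmed blastocysts, and Sod1, Gclm, Txnrd1 and Msrb2 did not pass the test. A match is a description of these letters and was not tied to binding.

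Of the 38 genes, 36 passed the filter on low counts, and Gpx8 and Slc7a11 did not. At an adjusted p under 0.05 (edgeR quasi-likelihood test, Benjamini–Hochberg over 12774 genes), 12 had higher and 10 had lower levels in the vitrified–warmed group, and 14 did not pass. That is 33.3% and 27.8% of those tested, close to the 31.6% and 32.8% called among all tested genes. The split was 9 higher and 14 lower with limma on log2(FPKM + 0.5), a scale on which the median of all genes lay at -0.13. Under the thresholds of the study (unadjusted p under 0.05, 1.5-fold, mean above 0.5 FPKM) Txnrd2 and Gclc were higher, and Gss, Glrx2, Nqo1, Hmox1 and Oxr1 lower, beside 9.17% and 11.6% of all tested genes. The groups did not overlap for 22 of the 36 genes, against 68.6% of all tested genes. The median log2 fold change of the set was 0.07 (all genes -0.00) and the median of its absolute values 0.32 (all genes 0.43). The set as a whole thus resembled the transcriptome in how many of its genes were called, and the differences lay between its members. How far they moved compared otherwise at like levels. Above a mean of 10 FPKM the median absolute log2 fold change was 0.29 (all tested genes at such levels 0.20). At or under 10 FPKM it was 0.54 (all tested genes 0.57).

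**Figure D1:**
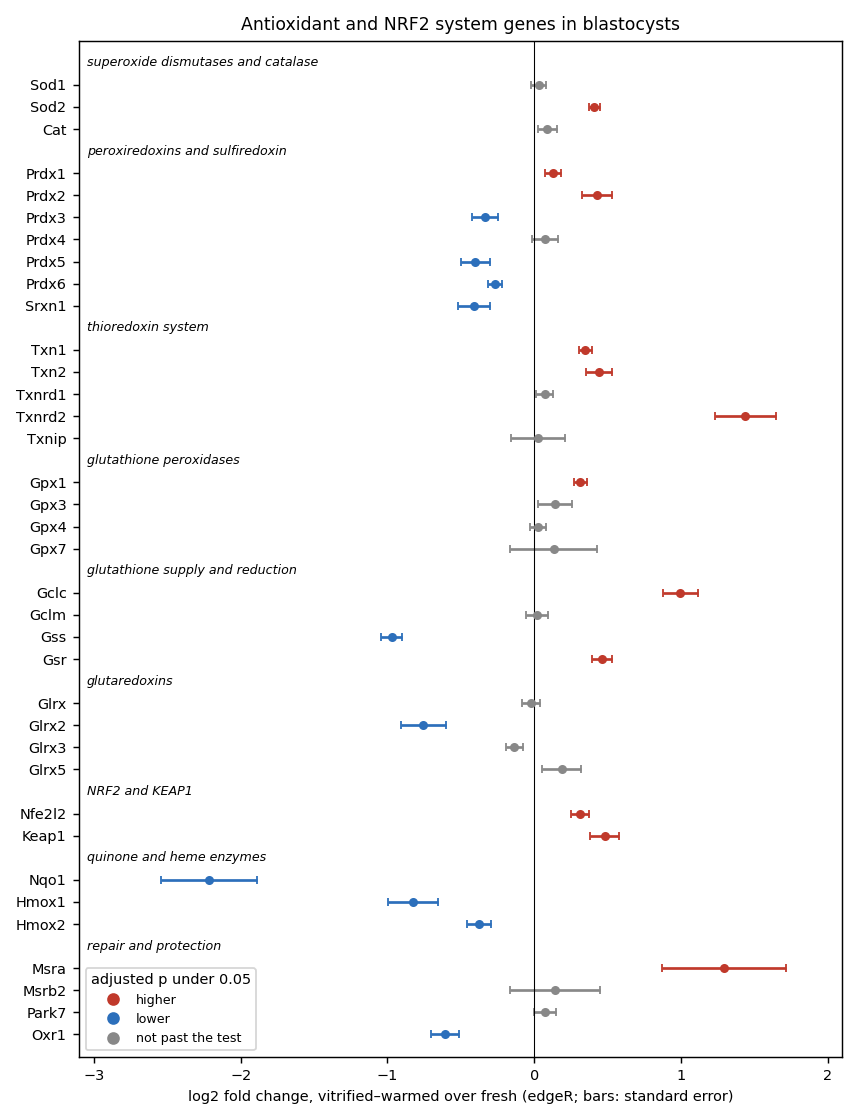
Log2 fold change of the 36 tested genes (x axis, vitrified–warmed over fresh, edgeR), grouped by role, with bars for the standard error and colour for the call at an adjusted p under 0.05. The 3 quinone and heme enzymes all lie below 0, Nqo1 lowest at -2.22. Of the 5 genes of the thioredoxin system, 3 are higher, with Txnrd2 highest at 1.44, and Txnrd1 and Txnip did not pass the test.

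Nfe2l2 and Keap1 both rose. Nfe2l2 (chr2:75675519-75704641, minus strand), which encodes NRF2, stood at 56.3, 61.2 and 63.3 CPM in the fresh libraries and at 73.0, 73.7 and 77.6 CPM in the vitrified–warmed libraries. All 3 vitrified–warmed libraries lay above the highest fresh library. The log2 fold change was 0.31 (SE 0.06, edgeR adjusted p = 0.000284), which is 1.24-fold, and with limma on log2(FPKM + 0.5) it was 0.14 and no longer passed the test (adjusted p = 0.057). Keap1, the adaptor that hands NRF2 to the ubiquitin ligase, stood at 19.7, 18.4 and 17.5 CPM fresh and at 23.5, 28.6 and 25.7 CPM vitrified–warmed. Its groups did not overlap either, and the log2 fold change was 0.48 (SE 0.10, edgeR adjusted p = 0.000541). Within each library the FPKM of Nfe2l2 was 5.91 ± 0.69 (SD, n = 3) times that of Keap1 in fresh and 5.25 ± 0.52 times in vitrified–warmed blastocysts, and these ratios overlapped. An antisense gene, Gm16754, shares 510 of the 4470 exon bases of Keap1, and since the counting was not stated to use strand, their reads cannot be told apart.

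The 3 enzymes of quinone and heme turnover fell, as did 32.8% of all tested genes. Of these 3, Nqo1 and Hmox1 are textbook targets of NRF2. Nqo1 (chr8:107388225-107403205, minus strand), which reduces quinones by a 2-electron step, had 43, 63 and 46 fragments in the fresh libraries and 12, 6 and 12 in the vitrified–warmed libraries. Every vitrified–warmed library lay well under the lowest fresh one. The mean fell from 4.48 to 0.944 CPM, a log2 fold change of -2.22 (SE 0.33, edgeR adjusted p = 2.49e-05) and the lowest among the 36 genes. Hmox1 (chr8:75093618-75100593, plus strand), the inducible heme oxygenase, stood at 17.5, 20.1 and 14.9 CPM fresh and at 8.47, 13.1 and 8.34 CPM vitrified–warmed. The groups were separate, though vitrified–warmed replicate 2 came near the lowest fresh library, and the log2 fold change was -0.82 (SE 0.17, edgeR adjusted p = 0.000792). Hmox2, the constitutive form, stood at 32.2, 35.6 and 33.9 CPM fresh and at 25.4, 27.9 and 25.3 CPM vitrified–warmed. Its log2 fold change was -0.38 (SE 0.08, edgeR adjusted p = 0.000839), again with no overlap. Cdip1 on the opposite strand shares 892 of the 1587 exon bases of Hmox2 and rose by 0.29 on the log2 scale. The FPKM ratio of Hmox1 to Hmox2 was 0.519 ± 0.067 in fresh and 0.381 ± 0.081 in vitrified–warmed libraries (SD, n = 3), and the groups overlapped. Nqo1 and Hmox1 thus moved opposite to Nfe2l2 in these libraries, while other known NRF2 targets described in the following paragraphs did not all do so. Gclc (0.995), Gsr (0.46) and Txn1 (0.35) were higher, Srxn1 (-0.41) was lower, and Gclm (0.02) and Txnrd1 (0.07) did not pass the test.

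**Figure D2:**
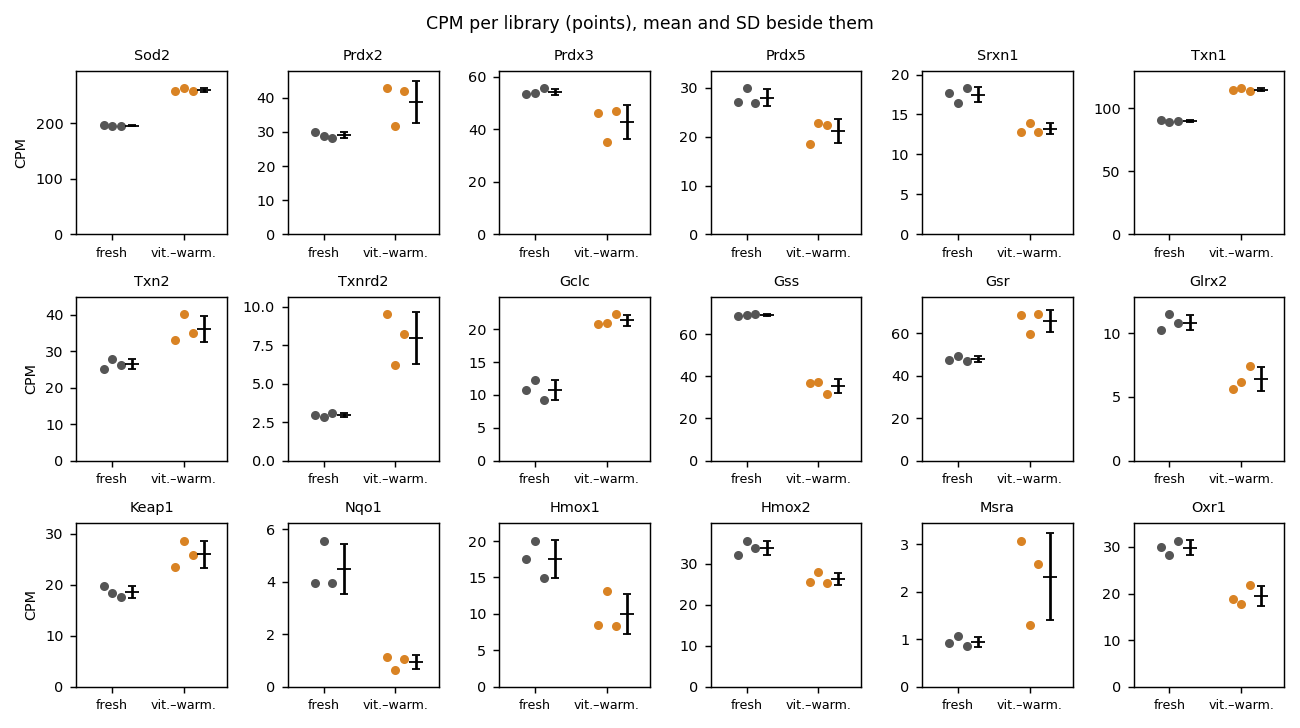
CPM in each library (y axes from 0, points) of the 18 genes past the test with a log2 change of at least 0.322 and no overlap between fresh (grey) and vitrified–warmed (orange) libraries, with the mean and SD (n = 3) beside the points. Sod2 and Txn1 show tight libraries and a moderate rise, Gss and Nqo1 a deep fall, and Msra a wide spread among the vitrified–warmed libraries (1.30 to 3.07 CPM).

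These 18 genes, 9 higher and 9 lower, compare with 25% and 25.5% of all tested genes that met the same criterion in each direction.

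The steps of glutathione synthesis moved apart. Gclc (chr9:77754516-77794489, plus strand) encodes the catalytic subunit of glutamate–cysteine ligase, the rate-limiting enzyme, and stood at 10.7, 12.3 and 9.15 CPM fresh and at 20.9, 20.9 and 22.3 CPM vitrified–warmed. The vitrified–warmed libraries were tight and far above the fresh ones, with a log2 fold change of 0.995 (SE 0.12, edgeR adjusted p = 3.23e-06). Gclm, the modifier subunit of the same enzyme, had means of 53.4 ± 3.2 and 54.0 ± 5.7 CPM (SD, n = 3), with a log2 fold change of 0.02 that did not pass the test. Gss (chr2:155563181-155592810, minus strand), which joins glycine in the last step, stood at 68.5, 69.3 and 69.4 CPM fresh and at 36.9, 37.5 and 31.6 CPM vitrified–warmed. The groups were far apart, and the log2 fold change was -0.97 (SE 0.07, edgeR adjusted p = 2.60e-08). Gsr, the reductase that recycles oxidized glutathione, stood at 47.5, 49.2 and 46.8 CPM fresh and at 68.8, 59.6 and 68.9 CPM vitrified–warmed. It rose by 0.46 on the log2 scale (SE 0.07, edgeR adjusted p = 2.25e-05) with no overlap.

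Opposite-strand transcripts share bases with Gss and Gclm. Acss2 covers 395 of the 2022 exon bases of Gss, stood at 10.7 and 7.72 CPM in the groups, and fell by 0.47 on the log2 scale. Slc7a11, the cystine importer that feeds the pathway, had 6, 0 and 1 fragments fresh and 9, 11 and 7 vitrified–warmed. This amounts to a ratio of 4.19 (95% counting interval 1.78 to 11.4), and without the low-count filter edgeR gave an adjusted p of 0.132, so that a difference was not established at this depth. Slc3a2, its partner chain, which is among the other redox genes below, stood at 58.6 ± 1.0 CPM fresh and 84.8 ± 1.6 CPM vitrified–warmed (SD, n = 3), without overlap.

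Ratios between genes within a library do not depend on how libraries are scaled. The FPKM of Gclc was 0.113, 0.128 and 0.0862 times that of Gclm in the fresh libraries and 0.207, 0.234 and 0.201 times in the vitrified–warmed libraries. The ratio of Gss to Gclc went from 12.2, 10.7 and 14.5 to 3.37, 3.42 and 2.70. In both cases the groups were fully separate, so Gss stood far above Gclc in fresh blastocysts and closer to it in vitrified–warmed ones. This does not hold for the whole first step. Gclm, its other subunit, had means of 16.2 FPKM fresh and 14.6 FPKM vitrified–warmed, against 21.5 and 9.77 FPKM for Gss. With 3 libraries against 3, the smallest two-sided p an exact permutation test can give is 0.1, and none was read from these ratios.

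**Figure D3:**
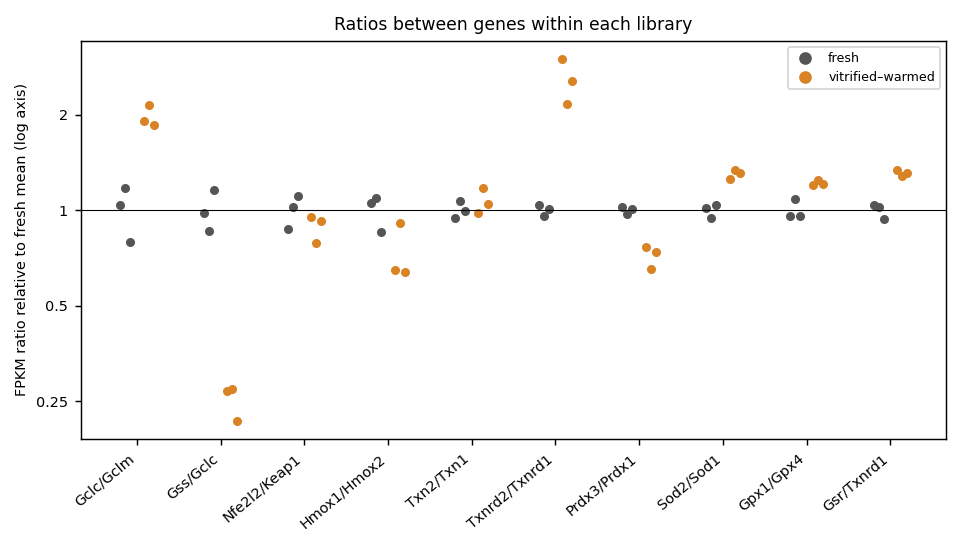
FPKM ratios of gene pairs within each library, divided by the fresh mean of the pair (y axis, log scale), for fresh (grey) and vitrified–warmed (orange) libraries. Gss over Gclc fell to 0.254 of its fresh mean and Txnrd2 over Txnrd1 rose to 2.57, while Nfe2l2 over Keap1, Hmox1 over Hmox2 and Txn2 over Txn1 overlap between groups.

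The thioredoxin system held 3 of 5 genes that rose and none that fell, beside 31.6% higher and 32.8% lower among all tested genes. Txnrd2 (chr16:18426417-18479073, plus strand), the mitochondrial thioredoxin reductase, stood at 2.94, 2.83 and 3.08 CPM fresh and at 9.50, 6.18 and 8.25 CPM vitrified–warmed. Each vitrified–warmed library was above the fresh libraries by a wide margin, and the log2 fold change of 1.44 (SE 0.21, edgeR adjusted p = 1.95e-05) was the highest of the set. Txn2, the mitochondrial thioredoxin, stood at 25.2, 28.01 and 26.3 CPM fresh and at 33.2, 40.1 and 34.9 CPM vitrified–warmed. Its log2 fold change was 0.44 (SE 0.09, edgeR adjusted p = 0.000416) with no overlap. Txn1, the cytosolic thioredoxin, stood at 90.8, 89.2 and 90.1 CPM fresh and at 114.5, 115.9 and 113.4 CPM vitrified–warmed. The 3 libraries of each group nearly coincided, and the log2 fold change was 0.35 (SE 0.05, edgeR adjusted p = 8.32e-06). The cytosolic reductase Txnrd1 had a log2 fold change of 0.07 and Txnip, which binds and inhibits thioredoxin, one of 0.02, and neither passed the test. The FPKM ratio of Txnrd2 to Txnrd1 was 0.0731 ± 0.0030 in fresh and 0.188 ± 0.031 in vitrified–warmed libraries (SD, n = 3), so the mitochondrial reductase remained the minor transcript.

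Among the superoxide dismutases, the mitochondrial enzyme rose. Sod2 (chr17:13007839-13018119, plus strand) stood at 196.5, 195.6 and 194.7 CPM fresh and at 257.2, 263.0 and 258.8 CPM vitrified–warmed. The spread within groups was a few CPM and far smaller than the gap between them, and the log2 fold change was 0.41 (SE 0.04, edgeR adjusted p = 2.39e-07). Sod1, the cytosolic copper–zinc enzyme, had overlapping means of 86.1 ± 4.3 and 87.9 ± 2.2 CPM (SD, n = 3) and a log2 fold change of 0.03, which turned to -0.19 (adjusted p = 0.0045) under a correction for exon length. Catalase (Cat), the peroxisomal enzyme, had 46.2 ± 1.8 and 49.1 ± 1.6 CPM and a log2 fold change of 0.09. The FPKM ratio of Sod2 to Sod1 was 0.386 ± 0.018 in fresh and 0.501 ± 0.017 in vitrified–warmed blastocysts, without overlap.

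The peroxiredoxins, the most abundant peroxide-removing transcripts of the set, were divided. Prdx2, a cytosolic form, stood at 30.0, 28.8 and 28.3 CPM fresh and at 42.8, 31.8 and 42.0 CPM vitrified–warmed. Vitrified–warmed replicate 2 lay just above the fresh range and the other two well above it, with a log2 fold change of 0.43 (SE 0.10, edgeR adjusted p = 0.00178). With limma on log2(FPKM + 0.5) the value was 0.23 (adjusted p = 0.129). Junb, which overlaps 173 exon bases of Prdx2, had 41, 23 and 25 fragments fresh and none vitrified–warmed, and Rnaseh2a, which overlaps 177, did not pass the test.

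Prdx3, the mitochondrial form, stood at 53.4, 53.7 and 55.7 CPM fresh and at 46.2, 35.2 and 47.2 CPM vitrified–warmed. It fell by 0.33 on the log2 scale (SE 0.09, edgeR adjusted p = 0.00495), with vitrified–warmed replicate 2 the lowest. Prdx5, found in mitochondria and peroxisomes among other places, stood at 27.2, 30.0 and 27.0 CPM fresh and at 18.4, 22.9 and 22.4 CPM vitrified–warmed. Its log2 fold change was -0.40 (SE 0.10, edgeR adjusted p = 0.00208), and Trmt112, whose exons cover 409 of its 688 exon bases on the other strand, fell by 0.22. Prdx6, which uses glutathione and also has phospholipase activity, had 108.1 ± 2.4 and 89.8 ± 4.0 CPM (SD, n = 3) and fell by 0.27 on the log2 scale (SE 0.05, edgeR adjusted p = 0.00023). Srxn1, the sulfiredoxin that repairs overoxidized peroxiredoxins, stood at 17.7, 16.4 and 18.3 CPM fresh and at 12.8, 13.99 and 12.9 CPM vitrified–warmed. All 3 vitrified–warmed libraries were below the fresh ones, and the log2 fold change was -0.41 (SE 0.11, edgeR adjusted p = 0.00364).

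Prdx1 (chr4:116685599-116700000, plus strand), the main cytosolic peroxiredoxin, was the most abundant gene of the set at a mean of 157.6 FPKM. It stood at 346.7, 366.7 and 365.1 CPM fresh and at 399.3, 356.3 and 422.2 CPM vitrified–warmed, and vitrified–warmed replicate 2 lay inside the fresh range. Its log2 fold change of 0.13 passed the test narrowly (SE 0.05, edgeR adjusted p = 0.049) and did not pass it without any one of the 3 fresh libraries or vitrified–warmed replicates 1 or 3 (adjusted p of 0.0703 to 0.141). Without vitrified–warmed replicate 2 the value was 0.20 (adjusted p = 9.9e-05), whereas limma on log2(FPKM + 0.5) gave -0.05. Prdx4, the form of the endoplasmic reticulum, had a log2 fold change of 0.07 and did not pass. Prdx3 over Prdx1 in FPKM was 0.148 ± 0.004 in fresh and 0.107 ± 0.009 in vitrified–warmed libraries (SD, n = 3), without overlap.

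Of the glutathione peroxidases, Gpx1 rose. This cytosolic and mitochondrial selenoenzyme stood at 101.8, 109.5 and 106.5 CPM fresh and at 129.2, 134.2 and 132.2 CPM vitrified–warmed, with no overlap and a log2 fold change of 0.32 (SE 0.05, edgeR adjusted p = 2.52e-05), or 1.24-fold. Gpx4, which reduces lipid peroxides, had 85.6 ± 4.1 and 87.2 ± 0.8 CPM (SD, n = 3) and a log2 fold change of 0.03. Gpx3, the secreted form, and Gpx7, of the endoplasmic reticulum, had log2 fold changes of 0.14 and 0.13 that did not pass the test. In FPKM, Gpx1 was 1.47 ± 0.10 times Gpx4 in fresh and 1.80 ± 0.04 times in vitrified–warmed libraries. Gpx8, another form of the endoplasmic reticulum, had no fragment in any fresh library and 8, 6 and 7 in the vitrified–warmed libraries. With 3 counts over the group as the limit of a count of 0, it was 7.60-fold higher. That ratio leaves out the counting error of the vitrified–warmed fragments. Without the low-count filter edgeR gave Gpx8 an adjusted p of 0.00677, as against 0.00541 with DESeq2. At 0.672 ± 0.065 CPM it remained a rare transcript, and 85 tested genes also had no fragment in any fresh library.

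The glutaredoxins, which use glutathione to reduce protein disulfides or carry iron–sulfur clusters, had 1 of 4 genes lower and none higher. Among all tested genes, 32.8% were lower and 31.6% higher. Glrx2, the mitochondrial form, stood at 10.3, 11.5 and 10.8 CPM fresh and at 5.59, 6.18 and 7.45 CPM vitrified–warmed. The groups were well separated, with a log2 fold change of -0.75 (SE 0.15, edgeR adjusted p = 0.000396). The abundant Glrx3 had 154.6 ± 6.6 and 141.1 ± 12.6 CPM (SD, n = 3) and a log2 fold change of -0.13 just short of the threshold (adjusted p = 0.0546), and without vitrified–warmed replicate 2 it was -0.21 (adjusted p = 0.000557). Glrx had a log2 fold change of -0.02. Glrx5, which serves iron–sulfur assembly in mitochondria, had 0.19 with no overlap between the groups but did not pass the test (adjusted p = 0.225).

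Among genes of repair and protection, Oxr1 (chr15:41447482-41861048, plus strand), whose loss sensitizes cells to oxidants, stood at 30.0, 28.2 and 31.4 CPM fresh and at 18.9, 17.8 and 21.9 CPM vitrified–warmed. The gap between groups exceeded the range of either, and the log2 fold change was -0.61 (SE 0.10, edgeR adjusted p = 5.03e-05). Msra, which reduces methionine sulfoxide in proteins, had 10, 12 and 10 fragments fresh and 33, 12 and 29 vitrified–warmed. In CPM this was 0.918, 1.06 and 0.855 against 3.07, 1.30 and 2.57, so that vitrified–warmed replicate 2 came close to the fresh libraries. Its log2 fold change of 1.30 (SE 0.42, edgeR adjusted p = 0.0135) did not pass without fresh replicate 3 or vitrified–warmed replicates 1 or 3 (adjusted p of 0.0535 to 0.114). Msrb2, the mitochondrial enzyme for the other sulfoxide form, had a log2 fold change of 0.14 on 21 to 35 fragments per library. Park7 (DJ-1), a protein of the oxidative stress response, had 47.1 ± 1.3 and 49.7 ± 4.3 CPM (SD, n = 3) and 0.07.

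Several members act mainly in mitochondria, and they went both ways: Sod2, Txn2 and Txnrd2 were higher, and Prdx3 and Glrx2 were lower. Since others, such as Gpx1 and Prdx5, are found there and elsewhere, no count by place was made. Of the genes that remove peroxide with thioredoxin in mitochondria, Txnrd2 and Txn2 rose while Prdx3 and Prdx5 fell. These 4 were grouped after their values were seen, and Prdx5 is not confined to mitochondria. Gpx1, a peroxidase that is also found there, rose. For each of the 4 genes the fresh and vitrified–warmed libraries did not overlap, as for 68.6% of all tested genes.

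The changes were also set against the level of each transcript. Of the 22 members above a mean of 10 FPKM, 13 passed the test, beside 1803 of all 2757 tested genes at such levels. Gss alone (4.55%) met the 1.5-fold threshold of the study, beside 8.78% of those genes. Of the 14 members at or under 10 FPKM, 9 passed, beside 6419 of 10017 tested genes. The threshold of the study was met by 6 (42.9%), beside 24% of those genes. Larger folds at low levels were a feature of all genes, while the difference between these shares was not tested. The median absolute log2 fold change was 0.29 in the first set and 0.54 in the second (all tested genes 0.20 and 0.57). Prdx1, Sod1, Gpx1, Glrx3 and Txn1 together made up 51.2% of the summed FPKM of all 38 genes in fresh and 53.3% in vitrified–warmed libraries, and Prdx1 alone 19.6% ± 0.3 and 20.3% ± 1.3 (SD, n = 3). The summed level of the set was 1976 to 2031 CPM in fresh and 2085 to 2178 CPM in vitrified–warmed libraries, but 811 to 819 and 738 to 787 FPKM. The direction of that sum therefore depends on the library total used. The share of exon fragments in the total derived from the FPKM of the authors differed between groups. It was 63.2% to 63.6% in fresh and 54.4% to 56.6% in vitrified–warmed libraries.

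**Figure D4:**
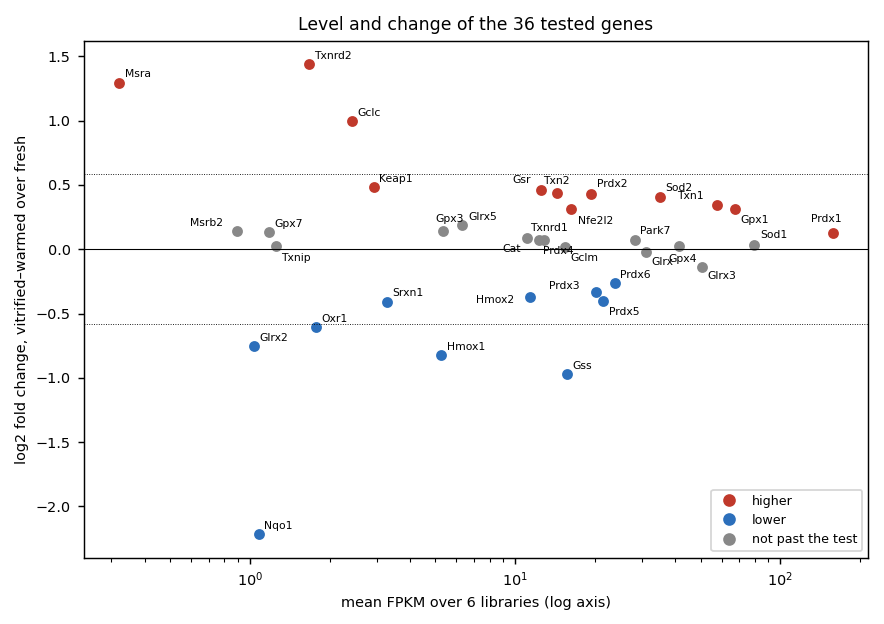
Mean FPKM over 6 libraries (x axis, log scale) against log2 fold change (y axis, edgeR) of the 36 tested genes, coloured by the call, with dotted lines at a 1.5-fold change. The genes above 10 FPKM lie between the dotted lines except Gss at -0.97, and Nqo1, Txnrd2, Msra and Gclc, the 4 genes that changed most, are all under 10 FPKM.

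A further 72 genes of the NRF2 pathway and of redox metabolism were read beside the set, of which 57 were tested, 15 being higher and 18 lower (median -0.01). That is 26.3% and 31.6% of those tested, near the 31.6% and 32.8% called among all tested genes. Of the partners and regulators of NRF2, 2 of 13 tested were higher and 2 lower. The larger changes were in small MAF genes at low levels, named here after their values were seen. Maff had 11, 10 and 14 fragments fresh and 23, 17 and 22 vitrified–warmed (log2 0.93, SE 0.39, edgeR adjusted p = 0.0458), and Mafk had 62, 62 and 50 against 38, 21 and 40 (log2 -0.71, SE 0.24, edgeR adjusted p = 0.0158). Cul3, the ubiquitin ligase scaffold that KEAP1 recruits, rose from 250.7 ± 3.6 to 275.0 ± 6.1 CPM (SD, n = 3; log2 0.13, SE 0.04, edgeR adjusted p = 0.00558). Btrc, the adaptor of the other ligase that removes NRF2, fell from 243.0 ± 12.3 to 205.9 ± 13.9 CPM (log2 -0.24, SE 0.05, edgeR adjusted p = 0.000932).

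NADPH supply, the electron source of both systems, had 2 of 9 genes higher and 5 lower, beside 31.6% and 32.8% of all tested genes. Nnt, the mitochondrial transhydrogenase, rose from 20.3 ± 1.6 to 37.3 ± 0.6 CPM (log2 0.88, SE 0.08, edgeR adjusted p = 4.03e-07). Its listed exon length of 73612 bases is its whole span (chr13:119335527-119409138), so its counts can hold intron fragments. The share of exon fragments also differed between the groups, and the part of this in the rise of Nnt was not tested. Nadk2, the mitochondrial NAD kinase, fell from 16.8 ± 2.8 to 10.7 ± 1.5 CPM (log2 -0.66, SE 0.14, edgeR adjusted p = 0.000873). A pair of further lower genes of this list were named after their values were seen. G6pdx, which opens the pentose phosphate pathway, stood at 35.9, 37.1 and 39.9 CPM fresh and at 25.2, 22.7 and 24.7 CPM vitrified–warmed, with a log2 fold change of -0.64. Pgd, the next NADPH-forming enzyme, stood at 212.2, 229.3 and 220.2 CPM and at 164.3, 168.0 and 165.5 CPM (-0.41). Neither gene overlapped between groups.

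Glutathione turnover had 1 of 10 tested genes higher and 4 lower, beside 31.6% and 32.8% of all tested genes. Slc3a2 rose by 0.53 on the log2 scale (SE 0.05, edgeR adjusted p = 4.92e-07) and Oplah, which returns 5-oxoproline to glutamate, fell by 1.20 (SE 0.17, edgeR adjusted p = 1.67e-05). Chac2, a cyclotransferase that breaks down glutathione, was named after its values were seen. It had 48, 49 and 52 fragments fresh and none in the 3 vitrified–warmed libraries. With 3 counts over the group as the limit, it was 45.7-fold lower, a ratio that leaves out the counting error of the fresh fragments. Chac2 is among 129 of the 12774 tested genes with no fragment in any vitrified–warmed library.

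The other antioxidant enzymes had 6 of 13 genes higher and 2 lower, and the other NRF2 target enzymes 4 of 11 in each direction. Among all tested genes, 31.6% were higher and 32.8% lower. Msrb3, a further methionine sulfoxide reductase, rose by 1.22 on the log2 scale (5.07 ± 0.36 to 11.9 ± 1.5 CPM), Ephx1, the microsomal epoxide hydrolase, rose by 0.76 (4.07 ± 0.16 to 6.88 ± 0.53 CPM), Tkt, transketolase, fell by 0.60 (110.9 ± 3.7 to 73.2 ± 0.8 CPM), and Ccs, the copper chaperone of SOD1, fell by 0.71 (6.20 ± 0.64 to 3.80 ± 0.37 CPM).

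Selenoproteins and their synthesis were read because some glutathione peroxidases, Gpx1 among them, and the thioredoxin reductases carry selenocysteine. Of 17 such genes in the table, 16 were tested, 6 being higher and 5 lower. That is 37.5% and 31.25%, near the 31.6% and 32.8% of all tested genes. Among them, Sephs2 and Sepsecs, which make selenophosphate and selenocysteinyl-tRNA, rose by 0.35 and 0.45 on the log2 scale, Selenop by 0.50, and Selenos fell by 0.74. The lower count was 2 without fresh replicate 3 and 3 without fresh replicate 2 or vitrified–warmed replicate 1.

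The calls on the set were largely kept under other settings. Of the 22 called members, 18 stayed past the test in the same direction in every alternative that gave a value, and the other 4 were Prdx1, Prdx2, Nfe2l2 and Msra. Of the 14 not called, 13 had a different sign or call in at least 1 alternative, Glrx5 being the exception, and no direction was read for them. Processed pseudogenes at least 95% identical over 200 bases or more exist for Sod1, Prdx1, Prdx2, Txn1, Gpx4 and Glrx3, and how the counting divided reads among such copies was not stated. Slc7a11 shares up to 375 bases with other genes, Tuba1a and Tuba1b among them, and the copies listed in the table held 19200 fragments against 34 for Slc7a11, so its ratio is uncertain for that reason too.

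**Figure D5:**
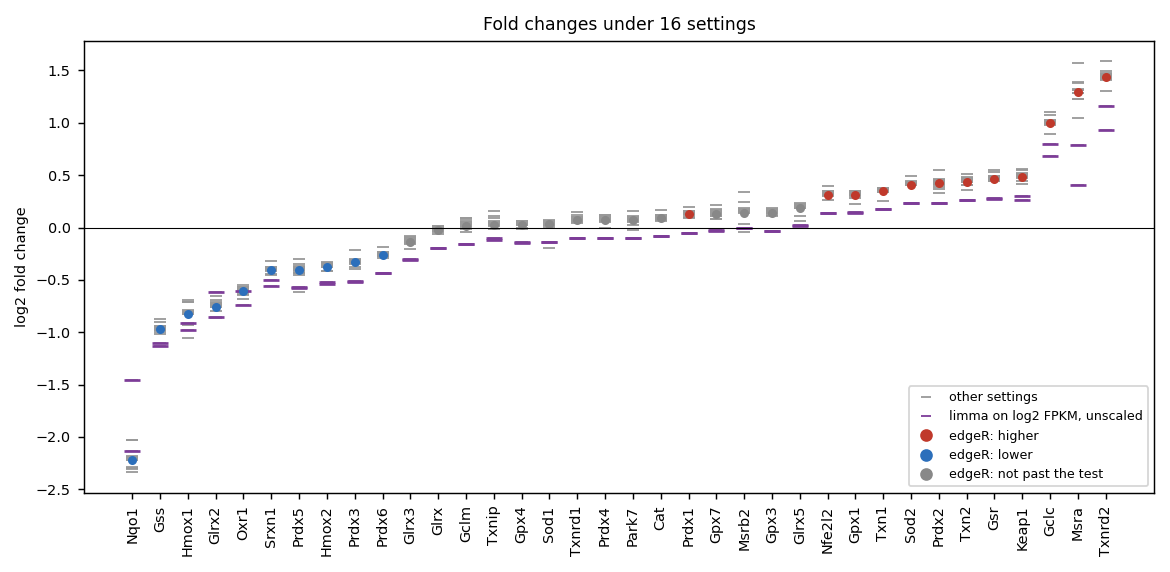
Log2 fold change of each tested gene (x axis, sorted) in the main test (points, coloured by call) and in the alternative settings (dashes), with limma on unscaled log2 FPKM in purple. The limma dashes lie lower for most genes (median of all genes -0.13 and -0.16), and genes near 0 change sign there, while Gss stays below 0 and Gclc, Txnrd2 and Sod2 stay above 0 in every setting.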

How the data were processed

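RNA-Seq libraries (Ovation SoLo kit) of 3 fresh and 3 vitrified–warmed aliquots were read from 1 table. The authors trimmed and aligned reads to GRCm38 and made the counts of exon fragments per gene in CLC Genomics Workbench 10, and the deposited counts are not normalized. The authors also deposited FPKM values. With the counts and exon lengths, these give a library total larger than the exon fragments. Their group means, fold changes and p-values are in the table and were not used, and the strand setting and annotation release are not given in the sources used here. 8 rows without a gene name were dropped.

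Low counts were removed by filterByExpr, and edgeR 4.0.16 was run on the rest (TMM, robust quasi-likelihood, R 4.3.3), with Benjamini–Hochberg adjustment over 12774 genes. The procedure was tested on simulated data with a common dispersion and few changed genes. That setting differs from these data, where 4034 genes were called higher and 4188 lower, so it does not bear on the calls here. Members and gene lists were chosen with earlier results of these data known. Members past an adjusted p of 0.05 with at least a 1.25-fold change and no overlap were given per library, and up to 2 genes per group of the other lists with a mean above 5 CPM were named. Alternatives were DESeq2 1.42.0, its size factors in edgeR, calibration to 12 housekeeping genes, no count filter, genes above 1 FPKM, limma 3.58.1 on log2(FPKM + 0.5 or 0.1), a correction for exon length, a replicate block, each library left out, and, for the thresholds of the study, an adjusted p or 2-fold instead. Intervals cover counting error only, and ratios to the limit of a count of 0 leave out the counting error of the other group. Python 3.11.15 with pandas 2.3.3 and scipy 1.17.1 made the tables, and promoter windows came from RefSeq. One gene outside the set is not reported here.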

Additional observations from a re-analysis of the deposited data

How the results depend on the processing

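Counts of higher and lower members stayed within 1.5 times under every alternative. With a 2-fold change in the thresholds of the study, 1 member was higher and 1 lower. Lower selenoprotein genes numbered 2 to 6 with a library left out. Limma on log2(FPKM + 0.5) and log2(FPKM + 0.1), with all genes at a median of -0.13 and -0.16, gave negative log2 fold changes for Sod1 (-0.14 and -0.14), Cat (-0.080 and -0.083), Prdx1 (-0.048 and -0.048), Prdx4 (-0.10 and -0.10), Txnrd1 (-0.10 and -0.10), Txnip (-0.10 and -0.12), Gpx3 (-0.031 and -0.033), Gpx4 (-0.14 and -0.14), Gpx7 (-0.026 and -0.033), Gclm (-0.15 and -0.16), Msrb2 (-0.0069 and -0.0032) and Park7 (-0.10 and -0.10). The correction for exon length reversed Sod1 (-0.19), Gpx4 (-0.017) and Park7 (-0.027). Glrx was 0.0070 after housekeeping calibration and 0.012 among genes above 1 FPKM. With each library left out in turn, values that changed sign ranged from -0.0016 to 0.072 for Sod1, -0.0089 to 0.12 for Prdx4, -0.10 to 0.16 for Txnip, -0.0057 to 0.060 for Gpx4, -0.042 to 0.094 for Gclm, -0.061 to 0.018 for Glrx and -0.045 to 0.34 for Msrb2. The causes were not tested.

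The replicate numbers did not pair the libraries (correlation of same-numbered deviations -0.05, -0.01 and -0.02 over 8775 genes). With the replicate block, 11 members were higher and 10 lower, and only the call on Msra was lost (log2 fold change 1.23, adjusted p = 0.055). Depth limits Msra, Nqo1, Gpx7, Gpx8, Msrb2 and Slc7a11, which had at most 63 fragments in any library.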
